A study of Homo sapiens with 18 samples.

Results

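The 43 genes described here encode the proteins by which epithelial cells hold on to their surroundings and to one another. The list was set by gene name, with earlier results of these data known. It holds integrin subunits, laminin and collagen chains, cadherins and other surface proteins, and components of tight junctions and desmosomes. A gene counted as measured when a probe had a detection p-value under 0.01 on at least 2 arrays, and its brightest such probe was used. By this rule 32 of the 43 were measured, out of 11589 genes measured in all.

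Expression was read in LNCaP, a human prostate cancer cell line that grows in response to androgen. The question of the series was how mutants of FOXA1, a forkhead transcription factor that opens chromatin for the androgen receptor, change gene expression with and without androgen. Control cells carried the empty hairpin vector pGIPZ and expressed GFP, and the knockdown cells carried a hairpin against FOXA1 and expressed GFP. In the remaining 7 constructs the same knockdown was combined with wild-type FOXA1, with G87R, D226N, M253K, F266S or L388M, or with FENG, a name that the labels do not define. All cells were starved of hormone for 3 days in 5% charcoal-stripped serum and then received ethanol or 1 nM of the synthetic androgen R1881 for 24 h. The 9 constructs under both treatments gave 18 arrays, 2 per construct and 9 per treatment, and no condition was arrayed again. The material was 1 cell line, and no source used here says whether arrays came from separate cultures or how many clones a construct represents.

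Integrins are paired membrane receptors that grip laminin, collagen and other matrix proteins and link them to the actin cytoskeleton. Laminins are trimers that form the basement membrane, on which the basal cells of the normal prostate gland sit. Cadherins, claudins and desmosomal proteins join neighbouring epithelial cells, and loss of such contacts is a known feature of cells that turn invasive.

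Of the 11 listed integrin subunits 8 were measured, of the laminin chains 5 of 7, of the collagen chains 3 of 5, of the cadherins and other surface proteins 4 of 6, of the tight junction genes 5 of 7, and of the desmosomal genes 6 of 6. The remaining measured gene, ITGB3BP, encodes a centromere protein that was named for binding an integrin tail and is not itself an adhesion receptor. Not detected on any of the 18 arrays were 9 listed genes, namely ITGA1, ITGB6, ITGB8, LAMA4, COL4A1, CDH2, CD44, CLDN1 and OCLN. LAMA3 and COL17A1 had no probe that the platform annotation used here names. Of the 32 measured genes 21 were detected on all 18 arrays, and the other 11 were ITGA2 (17 arrays), PKP3 (16), LAMB3 (15), CLDN4 (15), COL5A2 (14), COL3A1 (12), PKP2 (12), ITGA6 (10), CDH3 (5), COL4A2 (3) and ITGB4 (2). The 2 arrays with detected ITGB4 were M253K with ethanol and FENG with R1881.

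Between 15855 and 17278 probes were detected per array, at a mean raw signal of 233.1 to 303.9. The line's identity was checked on marker genes. Of 8 luminal and LNCaP markers with a probe, 8 were detected, among them KLK2, HOXB13, KRT8, TMPRSS2, FOLH1 and STEAP2 on all 18 arrays. The basal keratins KRT5 and KRT14, the fibroblast genes COL1A2, PDGFRB, DCN and THY1, the endothelial genes PECAM1, CDH5, KDR and TEK, and the leukocyte genes PTPRC, CD3E and LYZ were detected on no array. KRT15 (7 arrays), COL1A1 (12), LUM (2), VWF (18), CD14 (9) and ITGAM (10) were detected. FOXA1 itself was lower in knockdown than in control cells by 0.71 ± 0.12 on the log2 scale (limma adjusted p = 0.00287), and with wild-type FOXA1 it differed from knockdown by -0.35 ± 0.12 (limma adjusted p = 0.164). No source used here says whether the FOXA1 probe reads the introduced FOXA1, and the level of the inserts was not checked. The M253K array with ethanol stood apart, with a median correlation of 0.952 with the other ethanol arrays against a median of 0.980 over the 18 arrays, and 28.1% of all genes on it lay over 0.5 log2 units from their median over ethanol arrays. The same share was 14.4% on FENG with R1881, 9.87% on G87R with ethanol and 10.1% on M253K with R1881, and at most 8.46% on the other arrays. Of the 32 adhesion genes 15 lay that far out on M253K with ethanol and 9 on FENG with R1881. Adhesion gene results that turn on M253K with ethanol, FENG with R1881 or G87R with ethanol are given with and without those 3 arrays. These arrays were picked from earlier results of these data, so a difference that passes only without them gains no support from that. By the share of genes given here G87R with ethanol is no farther out than M253K with R1881.

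Promoters were sought for the 4 genes with a called difference of at least 1 log2 unit, either way, in at least 2 comparisons. Of these, COL5A2 and CLDN8 had no promoter entry. The promoters of the other 2, LAMB3 and TM4SF1, are shown so that the sequence next to their start sites can be read beside their values. They are from RefSeq (build GRCh38.p14), run 5′ to 3′ on the gene's own strand from 250 bases before the start site to 50 after it, and capitals mark the motifs found. LAMB3 lies at chr1:209652376-209652675 on the minus strand, and TM4SF1 at chr3:149377600-149377899 on the minus strand.
LAMB3: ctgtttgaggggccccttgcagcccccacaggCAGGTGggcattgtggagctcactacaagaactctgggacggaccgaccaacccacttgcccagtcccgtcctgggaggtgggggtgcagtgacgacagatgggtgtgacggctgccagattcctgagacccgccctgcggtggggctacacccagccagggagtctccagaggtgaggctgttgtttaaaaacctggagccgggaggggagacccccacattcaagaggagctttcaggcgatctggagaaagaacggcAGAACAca
TM4SF1: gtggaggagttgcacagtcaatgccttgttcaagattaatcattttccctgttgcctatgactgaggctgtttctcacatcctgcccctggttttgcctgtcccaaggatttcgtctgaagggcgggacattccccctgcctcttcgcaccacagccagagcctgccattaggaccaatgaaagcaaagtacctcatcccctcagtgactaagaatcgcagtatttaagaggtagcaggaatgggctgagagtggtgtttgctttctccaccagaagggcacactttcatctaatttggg
The 4 motifs forkhead, AP-1, androgen receptor half-site and SNAI E-box were searched on both strands in the 22 measured adhesion genes with a promoter entry. The forkhead motif, written as TGTTTAC or TATTTAC, was in 0 of the 22 and in 5.97% of all 35116 promoters. The AP-1 motif TGANTCA was in 2 of 22 (CLDN4 and ITGA5) and in 7.71% of all promoters. The androgen receptor half-site AGAACA was in 2 of 22 (LAMB3 and ITGA6) and in 14.8% of all promoters. The E-box CAGGTG, bound by the SNAI repressors, was in 8 of 22 (LAMB3, ITGA6, LAMA5, CLDN3, TJP1, DSG2, DSC2 and DSP) and in 20.6% of all promoters. In LAMB3 the capitals are CAGGTG at position -218 and AGAACA at position 43 relative to the start site, and TM4SF1 holds none of the 4 motifs as written. Other spellings of these sites were not searched, so their absence is not shown.

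Differences were tested across all 11589 genes with limma and Benjamini-Hochberg adjustment at 0.05. One fit over the 18 arrays had construct and treatment as terms, and a second, on the change with R1881 per construct, tested whether that change differed between sets of mutants. Values are log2 intensities, and differences are log2 differences ± standard error. In 11 comparisons 14 of the 32 genes passed in at least 1 and 18 in none, while 28.4% of all genes passed in at least 1. With R1881, 2 adhesion genes rose and 4 fell, where 13.4% of all genes passed (5.86% higher and 7.57% lower). Knockdown of FOXA1 raised 3 and lowered 2, against 8.30% of all genes (4.56% higher and 3.74% lower). Wild-type FOXA1 put back into knockdown cells lowered 1 gene and raised 0, against 4.63% of all genes (2.03% higher and 2.60% lower).

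Against wild-type FOXA1, G87R and L388M changed 0 of the 32 adhesion genes, and 0% and 0.00863% of all genes passed there. At an unadjusted p under 0.05 these were 0 adhesion genes of 192 genes in all for G87R, and 1 of 248 for L388M. D226N raised 1 adhesion gene, where 1.41% of all genes passed (1.00% higher and 0.406% lower). M253K raised 8, where 13.1% of all genes passed (8.48% higher and 4.63% lower). F266S raised 5, against 5.56% of all genes (3.53% higher and 2.03% lower), and FENG raised 2, against 5.93% (3.73% higher and 2.20% lower). None of these 4 mutants lowered an adhesion gene past the threshold. D226N, M253K and F266S alter residues in the forkhead, by which FOXA1 binds DNA, and G87R and L388M alter residues outside it. Set against each other as classes, 6 arrays against 4, the forkhead mutants had 7 adhesion genes higher and 1 lower, where 12.7% of all genes passed (7.19% higher and 5.52% lower). The difference between these sets in the change with R1881 gave 0 adhesion genes and 0% of all genes, with 4 and 400 at an unadjusted p under 0.05. Leaving out 1 array took the count to as few as 2 for M253K, 1 for F266S, 0 for D226N and 5 for the class. Where the background was left in the intensities, 20 of the 36 called differences of adhesion genes were smaller by over 1.5 times, with a median ratio of 2.00, so sizes are those after background correction.

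The median difference over the 32 genes was 0.43 for M253K, where that over all genes was 0.02. It was 0.26 for FENG (all genes 0.01), 0.16 for G87R (0.02), 0.13 for F266S (-0.01), 0.06 for L388M (0.01) and 0.03 for D226N (-0.02). The medians were 0.10 for knockdown (all genes -0.02), -0.08 for re-expression (0.02), -0.03 for R1881 (-0.02), and 0.08 for the forkhead class (-0.01). The standard error had a median over all genes of 0.184 for a pair of constructs, 0.119 for the class and 0.0869 for R1881. The smallest difference called for an adhesion gene between a pair of constructs was 0.58. The 6 mutants were each set against the same 2 wild-type arrays, and knockdown and re-expression share the knockdown arrays, so counts in these comparisons are not independent of each other.

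**Figure D1:**
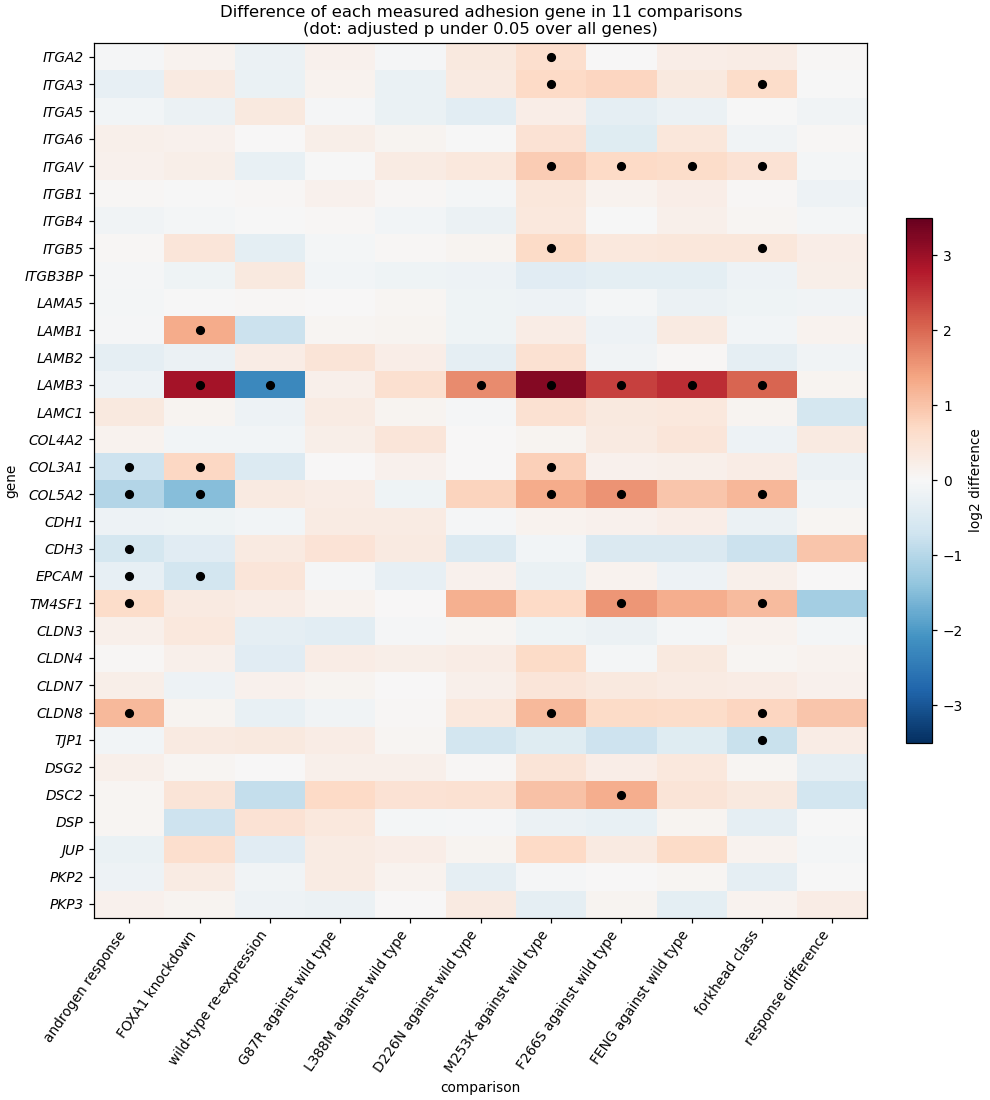
Log2 difference of each of the 32 measured adhesion genes in each comparison, with genes on the vertical axis and comparisons on the horizontal axis, and with a mark on differences past the limma adjusted p of 0.05. LAMB3 passed in 7 comparisons, COL5A2 in 5 and ITGAV in 4.

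Among laminin chains, LAMB3 changed in more comparisons and by more than any other measured gene of the list. LAMB3 encodes the beta-3 chain of laminin-332, the laminin of epithelial anchoring structures. Its log2 level was 4.41 with ethanol and 4.42 with R1881 in control cells, and 7.16 and 7.49 in knockdown cells. With wild-type FOXA1 it was 5.32 and 4.81, with G87R 5.48 and 5.00, and with L388M 5.81 and 5.45. With D226N it was 6.77 and 6.64, with M253K 8.58 and 7.94, with F266S 7.58 and 7.31, and with FENG 7.39 and 7.88. Each of the 8 arrays of D226N, M253K, F266S and FENG lay above each of the 8 arrays of control, wild type, G87R and L388M, and the knockdown arrays lay among the former. LAMB3 was undetected on both control arrays and on the wild-type array with R1881.

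Knockdown raised LAMB3 by 2.91 ± 0.24 (limma adjusted p = 6.39e-06), at least 5.60-fold when the undetected control arrays are set to the lowest detected signal. Without background correction the difference was 1.21, which is below that bound. Wild-type FOXA1 in knockdown cells lowered it by 2.26 ± 0.24, a log2 difference of -2.26 (limma adjusted p = 0.000117). Against wild type the gene was higher by 3.20 ± 0.24 with M253K (limma adjusted p = 2.91e-06), by 2.57 with FENG (3.51e-05), by 2.39 with F266S (7.11e-05) and by 1.64 with D226N (0.00409). It differed from wild type by 0.57 with L388M and by 0.17 with G87R, and neither passed. The forkhead class exceeded G87R and L388M by 2.04 ± 0.16 (limma adjusted p = 2.69e-06). R1881 moved LAMB3 by -0.17 over the 9 constructs, which did not pass, and construct accounted for 97.5% of its spread over the 18 arrays. Of these 7 calls 6 held whichever array was left out, and that of D226N was lost without either D226N array or without wild type with R1881 (limma adjusted p 0.0618 to 0.105), or without background correction (0.66, limma adjusted p = 0.0686). The other 5 rises without background correction ran from 1.05 for the class to 1.71 for M253K, and re-expression gave -1.04.

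The other laminin chains moved less. LAMB1, the beta-1 chain of widespread laminins, read 5.52 and 5.16 in control cells and 6.33 and 6.95 in knockdown cells (ethanol and R1881). Knockdown raised it by 1.30 ± 0.25 (limma adjusted p = 0.00603), a call lost without either R1881 array of the pair (limma adjusted p 0.0854 and 0.0971). A second LAMB1 probe was 0.83 higher in knockdown cells, and without background correction the rise was 0.56. With wild-type FOXA1 it read 5.94 and 5.84, and its difference from knockdown, -0.75, did not pass (limma adjusted p = 0.139). LAMA5, the alpha-5 chain of the mature basement membrane, had the narrowest range of the 32 genes, 0.36 log2 units over the 18 arrays, and passed in no comparison. LAMB2 and LAMC1, a beta and a gamma chain, also passed in none. LAMB2 read 9.04 on M253K with ethanol and 8.62 on G87R with ethanol, and between 7.18 and 8.21 on the other arrays. LAMC1 read 11.29 on M253K with ethanol and 10.10 to 11.06 elsewhere, and its difference with R1881 was 0.34 (limma adjusted p = 0.102), or 0.48 without those 3 arrays (limma adjusted p = 0.00972).

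**Figure D2:**
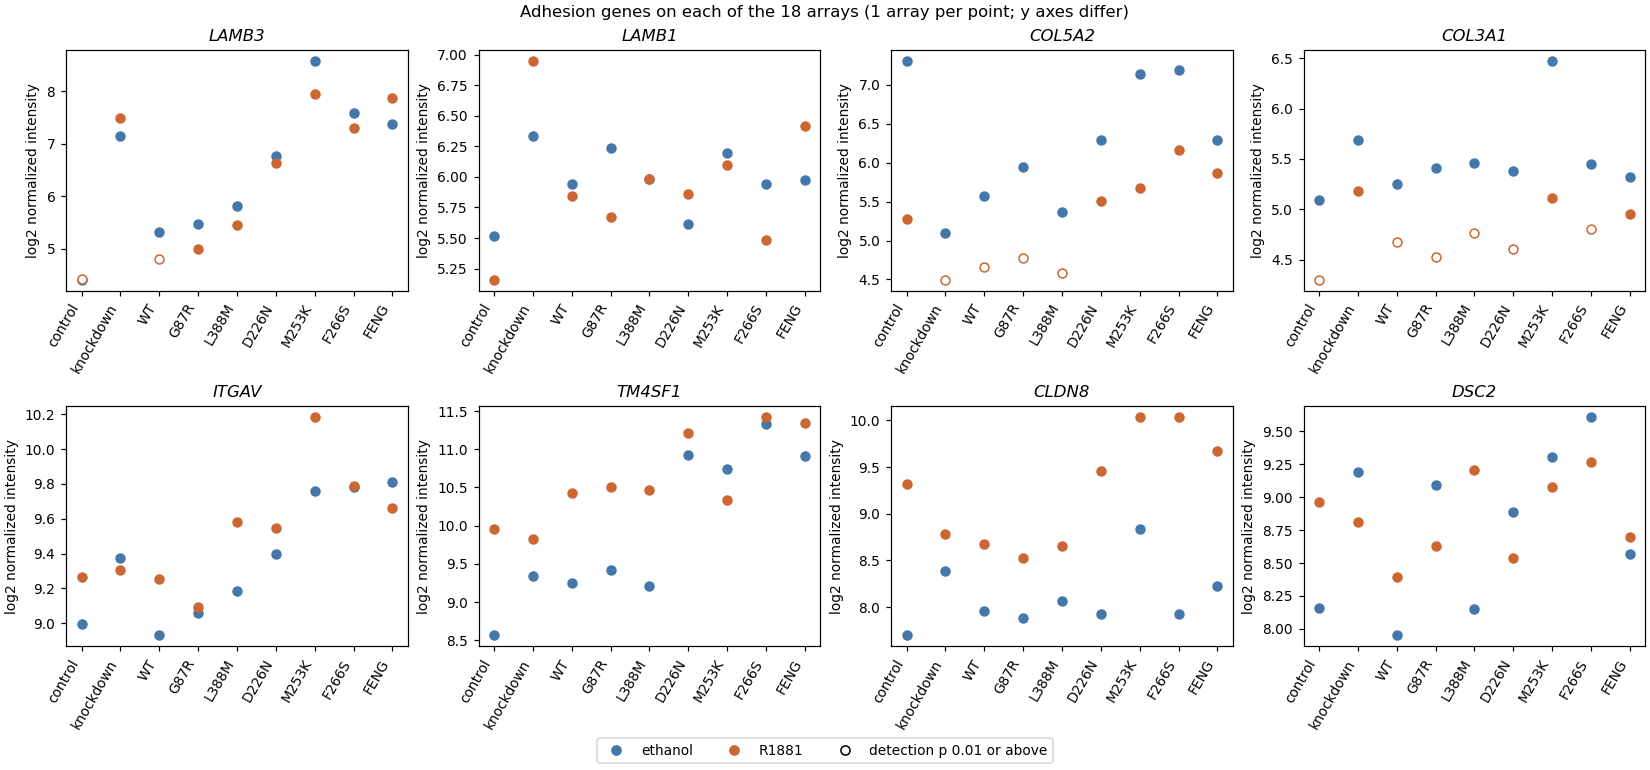
Log2 intensity on each of the 18 arrays for 8 adhesion genes (each panel 1 gene, constructs on the horizontal axis, colours for ethanol and R1881, open circles for a detection p-value of 0.01 or above). LAMB3 runs from 4.41 in control cells to 8.58 with M253K, and CLDN8 is higher with R1881 than with ethanol in each of the 9 constructs.

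Among collagen chains, COL5A2 and COL3A1 both fell with R1881. COL5A2, a chain of fibrillar type V collagen, read 7.31 with ethanol and 5.28 with R1881 in control cells, 5.10 and 4.50 in knockdown cells, and 5.57 and 4.66 with wild-type FOXA1. It read 5.95 and 4.78 with G87R, 5.37 and 4.58 with L388M, 6.29 and 5.50 with D226N, 7.14 and 5.68 with M253K, 7.19 and 6.16 with F266S, and 6.29 and 5.87 with FENG. With R1881 it was undetected in knockdown cells and with wild type, G87R and L388M. Sizes of differences that use those arrays therefore rest in part on undetected readings. The R1881 array was the lower one in 9 of 9 constructs, by 2.03 log2 units in control cells and by 0.42 with FENG. The fall was 1.02 ± 0.14 over the constructs, a log2 difference of -1.02 (limma adjusted p = 0.000306). Knockdown lowered COL5A2 by 1.49 ± 0.29 against control (log2 difference -1.49, limma adjusted p = 0.00647), and re-expression of wild type differed from knockdown by 0.31, which did not pass. Against wild type it was higher by 1.56 ± 0.29 with F266S (limma adjusted p = 0.00726) and by 1.30 ± 0.29 with M253K (limma adjusted p = 0.0116), and the differences of 0.97 with FENG and 0.78 with D226N did not pass. The forkhead class exceeded G87R and L388M by 1.16 ± 0.19 (limma adjusted p = 0.00145), with 5.50 to 7.19 on its 6 arrays against 4.58 to 5.95 on the other 4, which overlap. The R1881 call held whichever construct was left out but not with treatment alone in the model (limma adjusted p = 0.0513), and the class call held whichever array was left out. Without background correction the difference was -0.42 with R1881, -0.61 with knockdown, 0.65 with F266S and 0.46 for the class. The knockdown call was lost without either ethanol array (limma adjusted p 0.0753 and 0.0898, differences -2.06 to -0.93 over the 4 arrays), and the F266S call without any 1 of its 4 arrays (0.0616 to 0.0831). In the authors' processed table both were lost (0.0657 and 0.0549). The M253K call was lost without M253K with ethanol or either wild-type array (limma adjusted p 0.0671 to 0.0995), without background correction or in the authors' processed table (0.0613 and 0.0705), and without the 3 arrays the difference was 1.08 (0.0595).

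COL3A1, the chain of fibrillar type III collagen, ran from 5.09 to 6.47 with ethanol (median 5.41) and from 4.30 to 5.19 with R1881 (median 4.76). It was detected on all 9 ethanol arrays but on only 3 R1881 arrays, those of knockdown cells, M253K and FENG. Sizes of differences that use the other R1881 arrays therefore rest in part on undetected readings. The R1881 array was the lower one in 9 of 9 constructs, and the log2 difference was -0.73 ± 0.09 (limma adjusted p = 0.000152), a call that held whichever construct was left out and was -0.23 in size without background correction. It read 5.68 and 5.19 in knockdown cells against 5.09 and 4.30 in control cells, a rise of 0.74 ± 0.19 (limma adjusted p = 0.0329) that was lost without any 1 of the 4 arrays (limma adjusted p 0.0792 to 0.247) and under 3 other alternatives (0.121 to 0.310). With M253K it was 0.83 ± 0.19 higher than wild type (limma adjusted p = 0.0133), and 0.48 higher without the 3 arrays (limma adjusted p = 0.0515). The M253K call was also lost without M253K with ethanol or either wild-type array (limma adjusted p 0.0579 to 0.128, differences 0.48 to 1.18), with median scaling and in the authors' processed table (0.0592 and 0.0861). COL4A2, a basement membrane chain detected on 3 arrays, passed in no comparison. Knockdown thus moved the 2 called collagen chains in opposite directions, and M253K moved both upward. Each of these calls was lost in some of the alternatives given above. Expression was read in whole cultures, so fewer cells that express a gene and less RNA of it per cell cannot be told apart here.

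Among integrin subunits, no gene passed with knockdown, with re-expression, with R1881, or with D226N, G87R or L388M, while M253K raised 4 of 8, where 8.48% of all genes were higher. With median scaling of the arrays 3 of these 4 calls were lost. ITGAV, the alpha-V subunit of receptors for fibronectin and vitronectin, read 8.99 and 9.26 in control cells, 9.38 and 9.31 in knockdown cells, 8.93 and 9.25 with wild type, 9.06 and 9.09 with G87R, and 9.19 and 9.58 with L388M (ethanol and R1881). It read 9.40 and 9.55 with D226N, 9.76 and 10.19 with M253K, 9.78 and 9.79 with F266S, and 9.81 and 9.66 with FENG. The M253K, F266S and FENG arrays lay above all arrays of the other 6 constructs, and the D226N arrays lay within the range of L388M. Against wild type ITGAV was higher by 0.88 ± 0.16 with M253K (limma adjusted p = 0.00287), by 0.69 ± 0.16 with F266S (0.0233) and by 0.65 ± 0.16 with FENG (0.0322), and for the forkhead class against G87R and L388M by 0.51 ± 0.10 (0.0055). The M253K and class calls held whichever array was left out. That of F266S was lost without any 1 of its 4 arrays (limma adjusted p 0.0901 to 0.218), and that of FENG without FENG with ethanol or either wild-type array (0.112 to 0.264). Both were also lost with median scaling (limma adjusted p 0.237 and 0.255).

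ITGA3, the alpha-3 subunit that binds laminin-332, was higher in the forkhead class by 0.63 ± 0.13 (limma adjusted p = 0.00654), a call that held whichever array was left out. Its 6 arrays there ran from 5.86 to 6.66 and the 4 of G87R and L388M from 5.14 to 5.86. Against wild type ITGA3 was higher by 0.70 ± 0.20 with M253K (limma adjusted p = 0.0367), and by 0.43 without the 3 arrays (limma adjusted p = 0.186). The M253K call was lost without M253K with ethanol or either wild-type array (limma adjusted p 0.160 to 0.263, differences 0.41 to 0.99) and in 5 of 6 other alternatives, median scaling among them (0.58, 0.145). The difference with F266S, 0.74, did not pass (limma adjusted p = 0.0517).

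ITGB5, a beta subunit that pairs with alpha-V, was higher with M253K by 0.68 ± 0.15 (limma adjusted p = 0.00914), with 9.27 and 9.41 against 8.74 and 8.58 for wild type. This was lost without wild type with R1881 (limma adjusted p = 0.112) and with median scaling (0.55, 0.186). In the forkhead class ITGB5 was higher by 0.40 ± 0.10 (limma adjusted p = 0.0152), lost without G87R or L388M with R1881 (0.0724 and 0.102) and with median scaling (0.0930). ITGA2, the alpha-2 subunit of a collagen receptor, was higher with M253K by 0.58 ± 0.15 (limma adjusted p = 0.0276), with 5.42 and 5.61 against 5.03 and 4.85 for wild type. It was lost without either wild-type array or without M253K with R1881 (limma adjusted p 0.0858 to 0.188), with median scaling (0.44, 0.196) or without background correction (0.0758), and without the 3 arrays the difference was 0.74 (0.0142). Of the remaining subunits, ITGB1, the common beta-1 partner, ITGA5, the fibronectin receptor subunit, and ITGA6 and ITGB4, which form the hemidesmosomal laminin receptor, passed in no comparison. ITGB1 read 12.11 on M253K with ethanol and 11.23 to 11.87 elsewhere. Over both treatments M253K differed from wild type by 0.40 on this ITGB1 probe and by -0.87 on a second one.

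**Figure D3:**
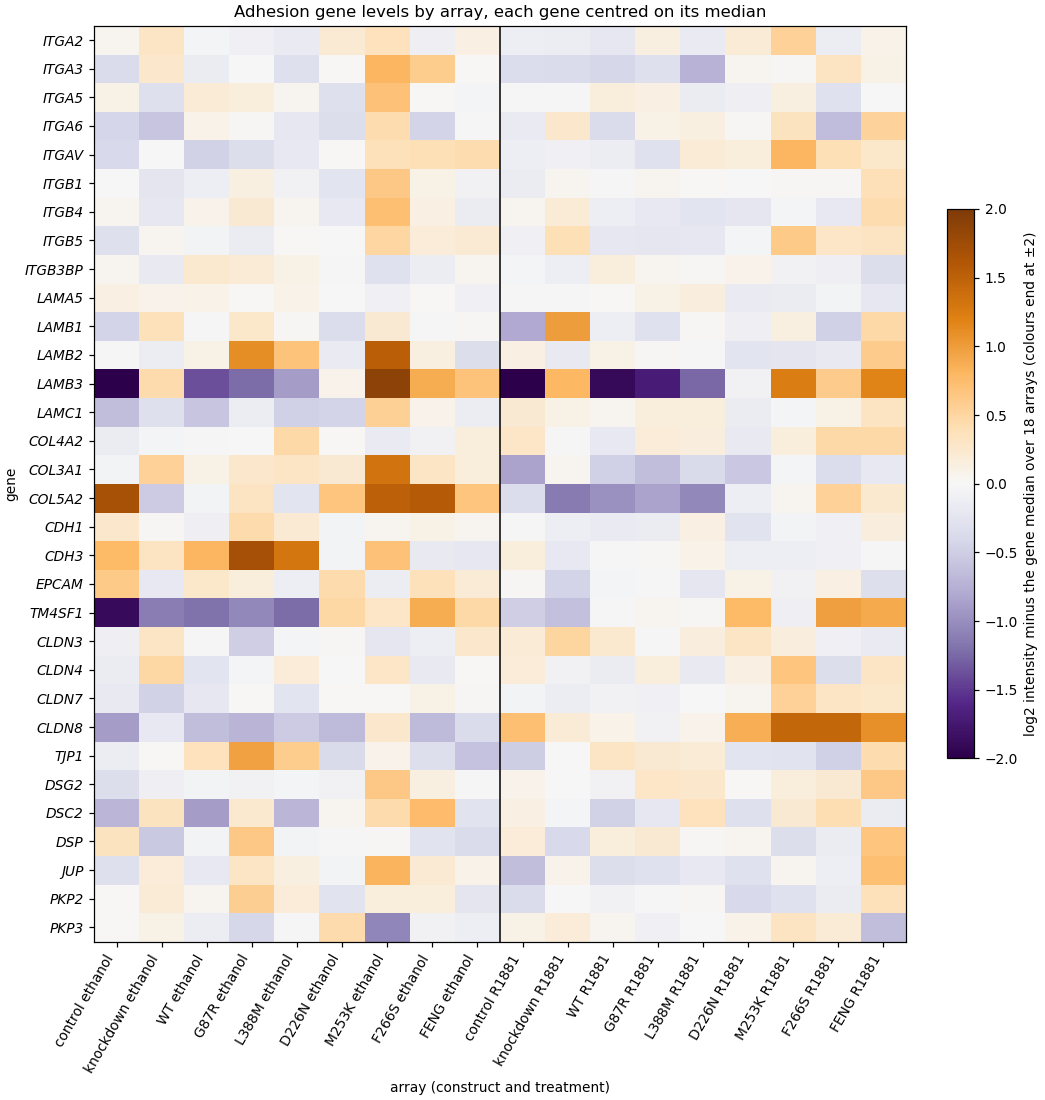
Log2 intensity of the 32 measured adhesion genes (vertical axis) on each of the 18 arrays (horizontal axis, ethanol left and R1881 right of the line), centred on each gene's median, with colours ending at 2 log2 units either way. LAMB3 and TM4SF1 are low in control cells with ethanol, and the M253K ethanol column holds more genes above their median than its neighbours.

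Among surface proteins, TM4SF1 was higher in the forkhead class and with F266S, and CDH3 and EPCAM fell with R1881. TM4SF1 encodes a small four-pass membrane protein of the tetraspanin-like L6 family, which associates with integrins. It read 8.56 with ethanol and 9.95 with R1881 in control cells, 9.34 and 9.83 in knockdown cells, 9.25 and 10.43 with wild type, 9.42 and 10.50 with G87R, and 9.22 and 10.47 with L388M. It read 10.93 and 11.22 with D226N, 10.75 and 10.34 with M253K, 11.33 and 11.43 with F266S, and 10.91 and 11.34 with FENG. With ethanol the 4 arrays of D226N, M253K, F266S and FENG lay above the other 5, and with R1881 the M253K array lay among the others. R1881 raised TM4SF1 by 0.65 ± 0.17 (limma adjusted p = 0.0233, 8 of 9 constructs), lost without the construct control, wild type, G87R or L388M (0.0611 to 0.0651) and under 3 other alternatives (0.0534 to 0.339). F266S exceeded wild type by 1.54 ± 0.36 (limma adjusted p = 0.0256), lost without any 1 of its 4 arrays (0.0710 to 0.248), in the authors' processed table or with no filter on dim probes (0.0644 and 0.0573). The class difference was 1.10 ± 0.23 (limma adjusted p = 0.0078), lost without G87R or L388M with ethanol (0.0508 and 0.0525), and 0.83 without the 3 arrays (0.0307). The difference of 0.70 with M253K did not pass (limma adjusted p = 0.232). The differences of 1.28 with FENG (limma adjusted p = 0.0574) and 1.23 with D226N (0.173) did not pass. Without the 3 arrays, which leaves a lone FENG array, the FENG difference was 1.46. That of D226N then passed at the same size, 1.23 (limma adjusted p = 0.0485), so only the residual spread and the adjustment had changed.

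CDH3, the placental cadherin of basal epithelium, was detected with ethanol in control cells, wild type, G87R, M253K and L388M and on 0 of the 9 R1881 arrays. It ran from 4.28 to 6.19 with ethanol (median 5.19) and from 4.30 to 4.65 with R1881 (median 4.46), and was lower with R1881 in 7 of 9 constructs. The difference of -0.61 ± 0.17 passed (limma adjusted p = 0.0328) and was at least 1.14-fold on the bound for undetected arrays. It was lost without the construct control, knockdown, wild type, G87R or L388M (limma adjusted p 0.0614 to 0.0868) and under 4 other alternatives (0.0726 to 0.167), with -0.18 where the background was left in. With ethanol CDH3 read 4.43, 5.19 and 4.31 with D226N, M253K and F266S, against 6.19 and 5.80 with G87R and L388M, and the class difference of -0.76 did not pass (limma adjusted p = 0.0525). EPCAM, an epithelial adhesion molecule, ran from 10.47 to 11.28 with ethanol (median 10.87) and from 10.22 to 10.78 with R1881 (median 10.62). The difference with R1881 was -0.28 ± 0.07 (limma adjusted p = 0.0235, 8 of 9 constructs), lost without the construct control, wild type or D226N (0.0568 to 0.0593) and under 3 other alternatives (0.108 to 0.259). Knockdown lowered EPCAM by 0.64 ± 0.16, a log2 difference of -0.64 (limma adjusted p = 0.0235), from 11.28 and 10.68 in control cells to 10.47 and 10.22, and this was lost without either knockdown array or without control with ethanol (0.117 to 0.225) or with the mean of its probes (0.0585). CDH1, the E-cadherin of epithelial junctions, ran from 11.02 to 11.74 over the 18 arrays and passed in no comparison, with differences between -0.21 and 0.30.

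Among tight junction genes, CLDN8 rose with R1881 by more than any other measured gene of the list. CLDN8, a claudin that limits the passage of ions between cells, read 7.70 with ethanol and 9.32 with R1881 in control cells, 8.39 and 8.79 in knockdown cells, 7.96 and 8.68 with wild type, 7.88 and 8.52 with G87R, and 8.06 and 8.65 with L388M. It read 7.93 and 9.46 with D226N, 8.84 and 10.04 with M253K, 7.93 and 10.04 with F266S, and 8.23 and 9.67 with FENG. The R1881 array was the higher one in 9 of 9 constructs, and the rise over them was 1.14 ± 0.16 (limma adjusted p = 0.000454), which held whichever construct was left out. A second CLDN8 probe rose by 1.15. M253K exceeded wild type by 1.12 ± 0.34 (limma adjusted p = 0.0499), a call that held in none of the refits: it was lost without any 1 of its 4 arrays (0.0817 to 0.292) and in each of 6 other alternatives (0.0588 to 0.116). The class difference of 0.76 ± 0.22 (limma adjusted p = 0.0411) was lost without 1 of 7 arrays, namely either G87R array, either D226N array or the R1881 array of M253K, F266S or L388M (0.0539 to 0.200), in the authors' processed table and with no filter on dim probes (0.0855 and 0.0839), and was 0.90 without the 3 arrays (0.0468). With ethanol CLDN8 did not separate the forkhead mutants from the rest, and with R1881 the arrays of D226N, M253K, F266S and FENG lay above those of the other 5 constructs.

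TJP1, the scaffold protein ZO-1 that ties junctions to actin, was the adhesion gene called lower in the forkhead class than with G87R and L388M. Its 6 arrays there ran from 9.15 to 9.69 (median 9.33) and those of G87R and L388M from 9.82 to 10.59 (median 10.03), without overlap. The difference was -0.77 ± 0.19 (limma adjusted p = 0.0203), and a second TJP1 probe differed by -0.90. It was lost without G87R, D226N or L388M with ethanol or F266S with R1881 (limma adjusted p 0.0536 to 0.126) and with median scaling (0.0729), and was -0.65 without the 3 arrays (0.00307). Against wild type the differences with F266S (-0.73, limma adjusted p = 0.221) and D226N (-0.65, limma adjusted p = 0.510) did not pass, while without the 3 arrays both did (0.00861 and 0.0365). None of the 3 arrays is of F266S, D226N or wild type, so only the residual spread and the adjustment had changed. Low TJP1 was not confined to the forkhead mutants. Over both treatments its mean was 9.31 in control cells, which have their own FOXA1, and 9.62 in knockdown cells, against 9.95 with wild type. With FENG it read 9.02 with ethanol and 10.06 with R1881. CLDN3, CLDN4 and CLDN7, claudins of epithelial barriers, passed in no comparison, with differences between -0.40 and 0.67.

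Among desmosomal genes there was 1 call over 6 genes and 11 comparisons. DSC2, a desmosomal cadherin, was higher with F266S than with wild type by 1.27 ± 0.34 (limma adjusted p = 0.0478), at 9.61 and 9.27 against 7.95 and 8.39, and the call was lost without any 1 of the 4 arrays (0.129 to 0.335) and under 4 other alternatives (0.0531 to 0.111). DSC2 read 8.16 and 8.97 in control cells, 9.19 and 8.81 in knockdown cells, 9.09 and 8.63 with G87R, 8.89 and 8.54 with D226N, 9.30 and 9.07 with M253K, 8.57 and 8.70 with FENG, and 8.15 and 9.21 with L388M. Wild type with ethanol was the lowest of the 18 arrays, and control and L388M with ethanol also lay below wild type with R1881. The differences of DSC2 with M253K (1.02, limma adjusted p = 0.0673), G87R (0.69) and L388M (0.51), and its change on re-expression (-0.83, limma adjusted p = 0.238), did not pass. Desmoplakin, encoded by DSP, differed by -0.72 after knockdown (limma adjusted p = 0.125) and plakoglobin, encoded by JUP, by 0.59 (limma adjusted p = 0.178). Without the 3 arrays both passed at the same size (0.00249 and 0.00502), so only the residual spread and the adjustment had changed. The other DSP probes differed by 0.13 and -0.27, and the other JUP probes by 0.14 and 0.50. DSG2, the other desmosomal cadherin on the list, and the plakophilins PKP2 and PKP3, which link desmosomes to keratin filaments, passed in no comparison.

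The spread of the genes over the 18 arrays was divided between construct, treatment and remainder. The median share over the 32 genes was 60.7% for construct, 9.25% for treatment and 28.1% for the remainder, and over all genes 51.9%, 5.78% and 33.5%. Treatment took the larger share in CLDN8 (60.3%) and COL3A1 (55.9%), and 35.6% in COL5A2. The remainder, which holds differences between constructs in the change with R1881 as well as array noise, was largest in ITGB4 (60.1%), LAMB2 (56.3%) and PKP3 (55.1%), each of which had its extreme value on M253K with ethanol.

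**Figure D4:**
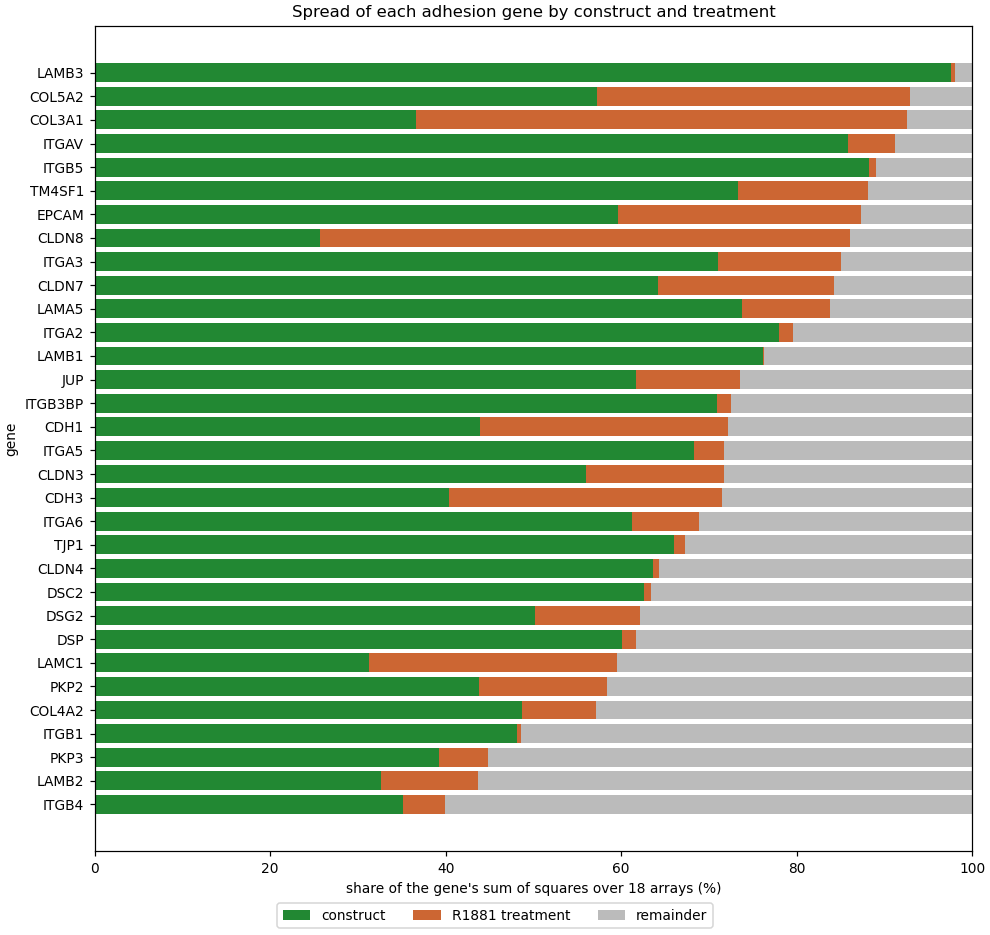
Share of each gene's sum of squares over the 18 arrays (horizontal axis, percent) that goes with construct, with R1881 treatment and with the remainder, for the 32 measured adhesion genes. LAMB3 is at 97.5% for construct, CLDN8 at 60.3% for treatment and ITGB4 at 60.1% for the remainder.

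The change with R1881 was compared between D226N, M253K and F266S on one side and wild type, G87R and L388M on the other. No adhesion gene passed after adjustment. TM4SF1 changed by 0.29, -0.40 and 0.10 with the forkhead mutants in that order, against 1.18, 1.08 and 1.25 in the other set. The difference between the sets was -1.18 ± 0.20 (limma adjusted p = 0.698). CLDN8 changed by 1.53, 1.20 and 2.11 against 0.72, 0.64 and 0.59, a difference of 0.96 ± 0.23 (limma adjusted p = 1.00). CDH3 changed by -0.06, -0.82 and 0.09 against -0.83, -1.67 and -1.23, a difference of 0.98 ± 0.29 (limma adjusted p = 1.00). In control cells, with their own FOXA1, TM4SF1 changed by 1.39, CLDN8 by 1.62 and CDH3 by -0.61, and in knockdown cells by 0.50, 0.40 and -0.51. CDH3 was detected on no R1881 array, and with ethanol it was undetected with D226N and F266S and in knockdown cells. Its changes of -0.06, 0.09 and -0.51 there lie between undetected readings, so they do not measure a response. The difference between the sets in CDH3 has the same limit.

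Differences from wild type were also set out within each treatment. With M253K the median over the 32 genes was 0.52 with ethanol, with 24 genes above 0, and 0.24 with R1881, with 20 above 0 (all genes 0.12 and -0.04). With FENG it was 0.11 with ethanol and 0.42 with R1881, with 26 of 32 genes above 0 (all genes -0.03 and 0.05). The larger medians were on M253K with ethanol and FENG with R1881, 2 of the 3 arrays left out elsewhere. With M253K, LAMB2 differed from wild type by 1.42 with ethanol and -0.35 with R1881, LAMC1 by 1.13 and -0.08, TM4SF1 by 1.49 and -0.09, and ITGB1 by 0.75 and 0.04. The second ITGB1 probe differed in the opposite direction, by -0.87 over both treatments. LAMB3, ITGAV, ITGB5 and ITGA2 were higher with M253K under both treatments and passed with the 3 arrays left out (2.96, 1.01, 0.73 and 0.74), and with median scaling LAMB3 and ITGAV passed and ITGB5 and ITGA2 did not. With G87R and L388M the medians lay between 0.04 and 0.16 under either treatment.

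**Figure D5:**
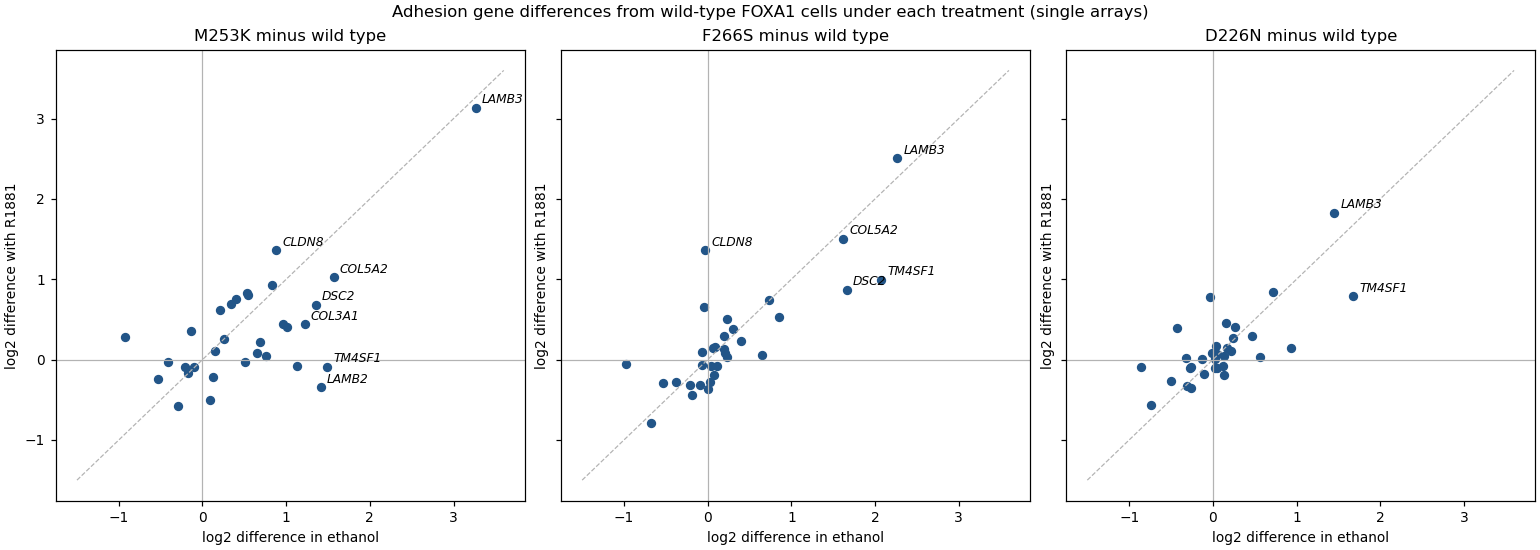
Log2 difference of each of the 32 adhesion genes from wild type with ethanol (horizontal axis) and with R1881 (vertical axis), in 1 panel each for M253K, F266S and D226N, with 1 point per gene and a dashed line of equal differences. LAMB3 lies far from 0 on both axes in the 3 panels, and LAMB2 and LAMC1 with M253K lie far from 0 on the ethanol axis and near 0 on the R1881 axis.

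The partners of these genes were counted in 6 lists: integrin partners, other matrix proteins and receptors, cadherin partners and nectins, other tight junction and polarity genes, other desmosome and envelope genes, and regulators of the epithelial to mesenchymal change. Of these, 71 genes were measured. Their calls were not refitted without the 3 arrays or under the other alternatives, so how far they turn on single arrays was not tested. The share of the 71 that passed was 21.1% with R1881 (all genes 13.4%), 18.3% with knockdown (8.30%), 8.45% with re-expression (4.63%), 26.8% with M253K (13.1%), 4.23% with F266S (5.56%), 11.3% with FENG (5.93%) and 16.9% in the forkhead class (12.7%). R1881 raised 7 and lowered 8 of them. The rises included SNAI2, a repressor of epithelial genes, at 2.93, GRHL2, an activator of epithelial genes, at 0.93, and CTNNA2, a catenin, at 0.52. The falls included the cadherin CDH26 at -0.79, the immunoglobulin adhesion molecule CADM1 at -0.64 and the heparan sulfate receptor SDC4 at -0.56. Knockdown raised 12 and lowered 1 of the 71, led by the matrix protein THBS1 at 2.66, SNAI2 at 1.40 and TLN2, which ties integrins to actin, at 1.35, with CLDN12 at -0.58. Re-expression raised 1, the intermediate filament gene VIM at 0.91, and lowered 5, led by THBS1 at -1.20, the junction receptor CXADR at -1.13 and the actin crosslinker ACTN1 at -0.98. G87R, L388M and D226N changed 0 of the 71. M253K raised 18 and lowered 1, VIM at -0.82, and the rises were led by CEACAM1 at 1.51, SDC4 at 1.43 and the desmosomal cadherin DSC3 at 1.20. F266S raised 3, namely DSC3 at 1.40, SDC4 at 1.28 and PERP, a desmosomal membrane protein, at 0.99. FENG raised 8, led by SDC4 at 1.27, THBS1 at 0.97 and CEACAM1 at 0.93. In the forkhead class 10 were higher, led by SDC4 at 1.08, DSC3 at 0.88 and CEACAM1 at 0.85, and 2 were lower, GRHL2 at -0.63 and PARVB, a partner of integrin-linked kinase, at -0.47.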

How the data were processed

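Biotin-labelled total RNA of 18 LNCaP samples was hybridised to Illumina bead arrays. For 47303 probes the deposited table holds an intensity and, beside it, a detection p-value, per the file headers. The submitters' processing notes name GenomeStudio and give no version. Deposited intensity values were 68.4 or above on all arrays, which leaves the background in them. A second deposited intensity table, with a lowest value of -15.4 and a median of 5.2, holds processed values of the same arrays, and no source used here states the steps behind it.

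The neqc method of limma 3.58.1 (R 4.3.3, offset 16) then corrected the background by means of these p-values, quantile-normalized the arrays and took log2. Probes with a detection p-value under 0.01 on at least 2 arrays were kept (20117). The platform annotation names 1 gene for 30102 probes, several for 8 and none for 17193, and symbols were updated through the GRCh38.p14 gene table. The brightest kept probe stood for each of 11589 genes. Of 14 called values with another kept probe, 0 had the opposite sign there.

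An additive limma fit, construct plus treatment, left 8 residual degrees of freedom, and the fit of R1881 changes left 4. With 1 array per condition the residual stands in for repeats, so p-values measure only this spread, which may be technical. Adjustment was over all genes. A fold written as "at least" is a bound, used for genes that no array of a group detected. No slide or scan date was known, so neither was tested as a batch. The scripts were tested on simulated data.

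The adhesion genes, the lists of partner and marker genes and the 3 arrays left out were chosen with earlier results of these data known. Each gene past the threshold was named, with up to 5 others of large difference per comparison. Alternatives were median scaling, no background correction, the processed table, no filter, the mean of a gene's probes, leaving out 3 arrays and leaving out each array in turn. Leaving out 1 of a construct's 2 arrays assumes that the lone array varies like the others, and for R1881 it leaves the construct out.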

Additional observations from a re-analysis of the deposited data

Results flagged for a closer look

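ITGB3BP, the centromere protein gene listed by its symbol, changed with R1881 in opposite directions in the sets of constructs compared. It was higher with R1881 with D226N, M253K and F266S (mean 0.11) and lower with wild type, G87R and L388M (mean -0.10), each construct following its set. The difference was 0.21 ± 0.15 on the log2 scale and did not pass the test across all genes (limma adjusted p = 1.00). Outside these sets ITGB3BP changed by -0.38 with FENG, by 0.07 in knockdown cells and by -0.08 in control cells. The change with FENG was larger in size than that of any construct in the sets.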

How the results depend on the processing

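The 36 calls of adhesion genes were refitted under each alternative, and none of the called differences changed direction there. In these refits the calls stayed past the threshold 325 times and were lost 127 times, and 12 of the 36 held in every refit. CLDN8 with M253K held in none. Without background correction 20 of the 36 differences were smaller by over 1.5 times (ratios 1.05 to 3.39), as that setting leaves the background in the values. Without the 3 arrays 2 were, COL3A1 and ITGA3 with M253K, and in the other settings, apart from leaving out 1 array, none. LAMB3 lost its call in D226N without background correction and in 3 of the refits that left out an array, and in no other comparison. The number of adhesion genes called moved by over 1.5 times in the following cases, whose cause was not tested. The share of all genes called in each refit is not given beside these counts. They therefore do not show whether the adhesion genes moved apart from the other genes. With median scaling M253K had 3, F266S 3 and FENG 1. Without background correction D226N had 0 and M253K 5. With the authors' processed table knockdown had 3, M253K 4 and F266S 2. With no filter on dim probes F266S had 3. Without M253K with ethanol, FENG with R1881 and G87R with ethanol re-expression had 3, D226N 3 and FENG 4. The construct term pairs the ethanol and R1881 arrays of a construct, and with no replicate block, treatment alone in the model, R1881 had 2. Comparisons between constructs are paired by treatment through the treatment term, and the labels carry no replicate numbers for another block. Leaving out each array in turn gave 3 to 10 for R1881 (3 without control or wild type, 10 without FENG, since a construct with 1 array says nothing of R1881), 2 to 3 for knockdown, 1 to 1 for re-expression, 0 to 0 for G87R, L388M and the response difference, and 0 to 1 for D226N. It gave 2 to 14 for M253K (2 without wild type and 14 without M253K, both with R1881), 1 to 1 for F266S, 1 to 3 for FENG and 5 to 10 for the forkhead class (5 without G87R with ethanol). Uncalled differences turned sign for DSP on re-expression with the mean of its probes (-0.027), for CDH3 with G87R without the 3 arrays (-0.097) or without G87R with ethanol (-0.12, of -0.12 to 1.07 over the refits without 1 array), and for DSC2 with L388M without L388M with R1881 (-0.048, of -0.048 to 1.06). Of the 32 measured genes 11 were not detected on all arrays, and the number of arrays limits the precision.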
